A study of Homo sapiens with 9 samples.

Results

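A set of 46 genes stood high in cells given a splicing inhibitor and then, a day later, below the level of cells given vehicle. They were picked from 60708 gene IDs by their CPM, the raw count divided by the library total and multiplied by 1000000. A gene was a member if its mean CPM under the inhibitor was at least 1.6 times that in vehicle and at least 2, if its mean CPM at recovery was at most 0.6 times that in vehicle, and if all 3 libraries of either group lay clear of all 3 vehicle libraries. The contrasts of treatment and of recovery with vehicle chose the members, and the contrast of recovery with treatment follows from those 2. All changes of members are given here as a description and no test is read for them.

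RNA was measured in MDA-MB-231, an established line of human breast cancer cells of the triple-negative kind, meaning that neither hormone receptor is expressed and HER2 is not amplified. The 3 groups were 3 libraries from cells kept in 10 nM pladienolide B (PdB) for 16 h, 3 from cells collected after PdB and then 24 h of recovery, and 3 from cells given the solvent DMSO. All 9 libraries came from the same line and were made from polyadenylated RNA, so every result is on 1 line, and the labels give 1 DMSO group for both the treatment and the recovery. They give no time for the DMSO group, so recovery from PdB and later collection cannot be told apart. Library totals ran from 56389689 to 67047079 counts. The labels do not say that replicates came from separate cultures, so a p-value measures only the spread between these libraries. VIM, encoding the mesenchymal filament protein vimentin, stood at 1940 CPM under PdB, 1183 CPM at recovery and 2954 CPM in DMSO, and the oestrogen receptor gene ESR1 was at 0 in every library. Summed over 12 markers of leukocytes, endothelium, red cells and fat cells, the level was 1.22 to 2.15 CPM under PdB, 2.25 to 3.50 CPM at recovery and 3.40 to 4.40 CPM in DMSO, with HBB and ADIPOQ at 0 in all 3 groups, and its part in the results was not tested. No spike-in was given in the sources used here, so CPM are shares of a library, and fewer cells and less RNA per cell cannot be told apart.

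Introns are cut from most human transcripts by the spliceosome, whose U2 particle binds the branch point through SF3B1, and pladienolide B blocks that step. Transcripts of genes with many introns then stay unspliced, are decayed or are held in the nucleus, whereas genes with no intron do not need the step. SR proteins help the spliceosome to find exons, the unfolded protein response raises chaperones when proteins misfold in the endoplasmic reticulum (ER), and Notch receptors switch on genes together with RBPJ and Mastermind coactivators. Genes of each of these groups were among the 46 members. SF3B1 itself, which is not a member, had 474 ± 16.2 CPM under PdB, 420 ± 14.6 CPM at recovery and 267 ± 4.02 CPM in DMSO (mean ± SD, n = 3 each).

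Few of the genes that were high under PdB met the condition at recovery. Of 12828 genes with a PdB mean of at least 2 CPM, 2568 with any count in DMSO had a ratio of 1.6 or more (20.1% when genes at 0 in DMSO are counted too), and 46 of these also had a recovery ratio of 0.6 or less (17.8% of all met that ratio). All 46 were already clear of DMSO in every library. Among the 2552 genes that met every PdB condition, 46 (1.80%) were at 0.6 times DMSO or less at recovery, 267 (10.46%) lay above 0.6 and under 1, 762 (29.9%) lay from 1 to under 1.6, and 1477 (57.9%) stood at 1.6 times DMSO or more. Their median ratio of recovery to DMSO was 1.76. Both ratios use the same DMSO libraries, so no relation between them is drawn. For comparison with the rule, all PdB libraries lay above all DMSO libraries in 33.8% of the 12828 genes, and all recovery libraries lay below all DMSO libraries in 40.6%, shares from which nothing is read about the members.

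**Figure D1:**
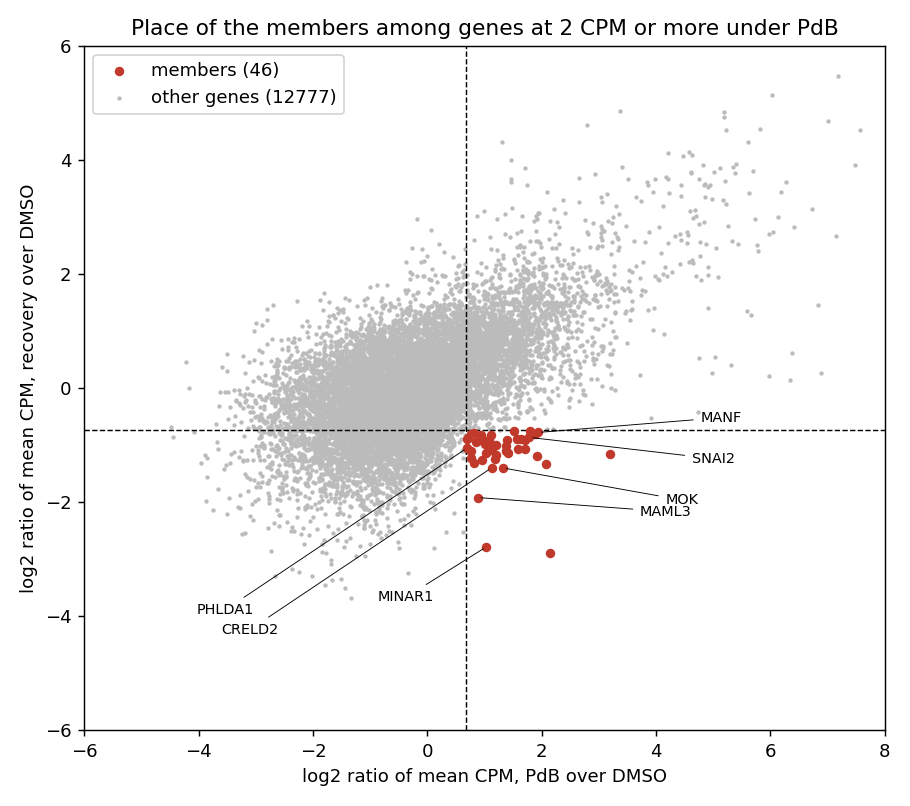
Each point is a gene with a PdB mean of at least 2 CPM and a value above 0 in the other groups, at its log2 ratio of mean CPM for PdB over DMSO (x axis) and recovery over DMSO (y axis), which share the DMSO libraries. The 46 members, in red, fill the corner beyond both dashed thresholds of 1.6 and 0.6, most of them within a short distance of the lower threshold and MINAR1 and MAML3 well under it.

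Within the set, the ratio of PdB to DMSO ran from 1.61 to 9.13 with a median of 2.22, and 11 members stood at 3 or more, 21 from 2 to under 3, and 14 under 2. The ratio of recovery to DMSO ran from 0.135 to 0.595 with a median of 0.497. It was under 0.4 for 6 members, from 0.4 to 0.5 for 17 and from 0.5 to 0.6 for 23. Between recovery and PdB the ratio had a median of 0.205 and a range of 0.0304 to 0.339. All 46 members were called by edgeR in all 3 contrasts, as 66.1% of all genes were between recovery and PdB, and nothing is read from that. Replicates lay close together, with a median coefficient of variation over members of 8.38% under PdB, 8.63% at recovery and 10.7% in DMSO. PdB replicate 3 was the lowest of the PdB libraries for 28 members and the highest for 9.

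**Figure D2:**
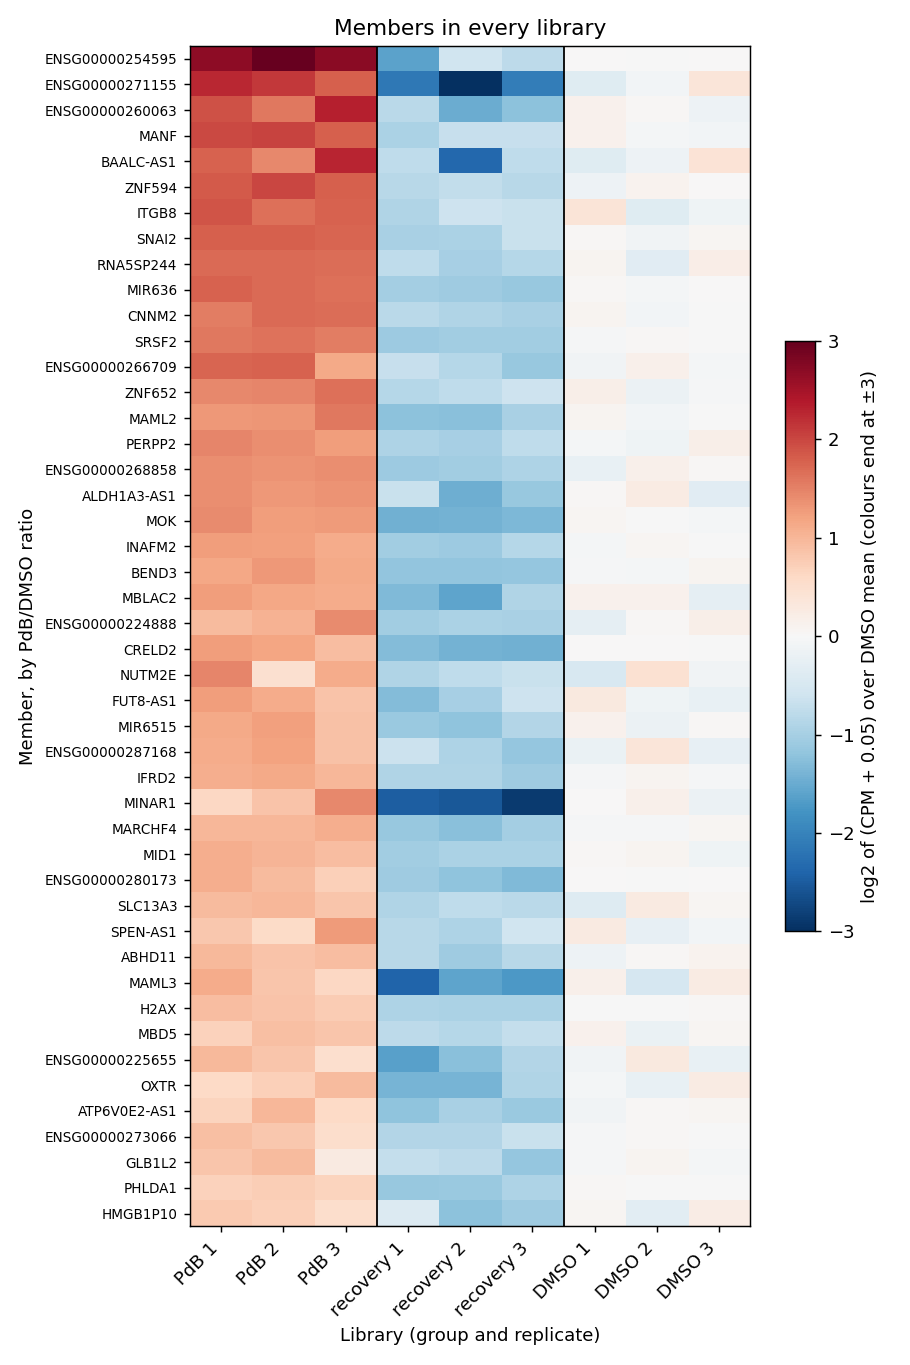
Rows are the 46 members, ordered by their PdB to DMSO ratio, and columns are the 9 libraries; colour gives the log2 of CPM (plus 0.05) over the gene's DMSO mean, with the scale ended at 3 in either direction. Every member is red in the 3 PdB libraries and blue in the 3 recovery libraries, the pattern the rule selects, while MINAR1 and ENSG00000271155 are the darkest blue and GLB1L2 in PdB replicate 3 and NUTM2E in PdB replicate 2 are pale.

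Sequences are shown first for a pair of ER stress genes, because MANF and CRELD2 are the members known as targets of the unfolded protein response. Each line holds the 250 bases before the RefSeq transcription start on GRCh38.p14, plus strand, 5′ to 3′. For MANF, chr3:51385041-51385290, capitals mark the 3 CCAAT boxes, which lie 159 to 155, 107 to 103 and 63 to 59 bases before the start. For CRELD2, chr22:49918384-49918633, capitals mark the match to the ER stress response element (CCAAT, 9 bases of any kind, then CCACG) on the reverse strand, 80 to 62 bases before the start.
MANF: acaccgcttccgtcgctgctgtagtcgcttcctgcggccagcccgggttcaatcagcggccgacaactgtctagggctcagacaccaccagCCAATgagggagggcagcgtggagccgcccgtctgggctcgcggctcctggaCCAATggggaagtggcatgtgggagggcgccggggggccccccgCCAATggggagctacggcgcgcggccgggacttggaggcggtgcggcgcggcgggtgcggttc
CRELD2: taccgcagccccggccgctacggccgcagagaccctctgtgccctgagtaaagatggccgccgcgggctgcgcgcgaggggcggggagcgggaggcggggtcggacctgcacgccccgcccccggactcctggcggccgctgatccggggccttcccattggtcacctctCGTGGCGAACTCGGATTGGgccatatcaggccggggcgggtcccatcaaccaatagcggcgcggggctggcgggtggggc

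MANF (chr3:51385047-51389397, plus strand) encodes a small ER protein that is secreted under ER stress and protects cells. It had 186, 191 and 163 CPM in the PdB libraries, 24.5, 28.97 and 28.9 CPM in the recovery libraries, and 51.8, 44.95 and 44.5 CPM in the DMSO libraries. The groups did not overlap, which the rule requires of every member, and the lowest PdB library was 3.15 times the highest DMSO library. Ratios of means were 3.82 for PdB and 0.583 for recovery over DMSO, the recovery ratio close to the threshold, and MANF left the set when DMSO replicate 1 or recovery replicate 1 was omitted.

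CRELD2 (chr22:49918167-49927540, plus strand) encodes an ER protein with disulfide isomerase-like motifs that is induced by ER stress. Its libraries read 43.5, 41.7 and 35.0 CPM under PdB, 7.37, 6.81 and 6.71 CPM at recovery, and 18.4, 18.4 and 18.2 CPM in DMSO. All 3 groups were separate by the rule, DMSO had the least spread of any member (0.799%), and the ratios were 2.19 and 0.380. CRELD2 was among the members furthest below DMSO at recovery, and MANF among those nearest to it. ALG12, which overlaps CRELD2 on the opposite strand, was not called under PdB (log2 change −0.17 ± 0.098 SE, adjusted p = 0.12) and fell at recovery (−0.77 ± 0.099, adjusted p = 2.0e-06), both by edgeR's quasi-likelihood test.

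Other genes of the unfolded protein response did not share 1 pattern. Of 31 listed non-members that were tested with edgeR over all 20812 genes (adjusted p under 0.05), 19 rose, 10 fell and 2 were not called under PdB, with a median log2 change of 0.31 against −0.11 for all genes. At recovery 11 rose, 16 fell and 4 were not called, with a median of −0.20 against 0.03 for all genes. In all, 70.2% of genes tested were called between PdB and DMSO, 32.0% as higher and 38.2% as lower, and 61.2% between recovery and DMSO, 30.7% as higher and 30.5% as lower. These log2 changes are scaled by trimmed mean of M-values (TMM), and with library totals in its place the median of all genes under PdB moved to −0.31. Library totals called 5579 genes higher and 9098 lower under PdB, TMM 6656 higher and 7944 lower, and upper-quartile scaling 7510 higher and 7060 lower, so that the balance of the 2 directions turned with the scaling.

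DERL3, a gene for ER-associated degradation, had the largest rise of the list under PdB, with 21.6 CPM under PdB, 3.83 CPM at recovery and 1.48 CPM in DMSO (log2 change 4.06 ± 0.19, adjusted p = 1.3e-12). DNAJC1, an ER co-chaperone, had the largest fall there (−1.21 ± 0.073, adjusted p = 3.6e-11). At recovery the largest rise was that of the stress sensor ERN1 (1.37 ± 0.097, adjusted p = 6.7e-10) and the largest fall among the non-members that of the oxidase ERO1A (−1.39 ± 0.047, adjusted p = 5.2e-14). Chosen after their values were seen, the chaperones HSPA5 and PDIA4 also rose under PdB and fell at recovery without meeting the rule. HSPA5 changed by 3.08 ± 0.052 under PdB (adjusted p = 1.3e-17) and −0.36 ± 0.048 at recovery (adjusted p = 3.6e-06). PDIA4 changed by 0.82 ± 0.048 under PdB (adjusted p = 2.4e-11) and −1.29 ± 0.049 at recovery (adjusted p = 1.9e-13). CDNF, the relative of MANF, was not called in either contrast, at 0.579 CPM under PdB, 0.884 CPM at recovery and 0.504 CPM in DMSO. CRELD1, the relative of CRELD2, rose by 0.35 ± 0.094 under PdB (adjusted p = 0.0028) and fell by 0.52 on the log2 scale at recovery (adjusted p = 0.00012).

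SRSF2 (chr17:76734115-76737374, minus strand) encodes an SR protein that binds exonic enhancers and recruits the spliceosome. It read 752, 767 and 724 CPM in PdB libraries, 116, 121 and 121 CPM in recovery libraries, and 243, 256 and 249 CPM in DMSO libraries. The spread within each group was small against the distance between groups. SRSF2 stood at 2.997 times DMSO under PdB and 0.479 times DMSO at recovery, and stayed in the set under all 18 alternatives to the rule. The edgeR log2 changes were 1.78 ± 0.048 (SE) and −1.13 ± 0.048.

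Among 24 other SR proteins and their kinases tested, 18 rose, 4 fell and 2 were not called under PdB, with a median log2 change of 1.11. At recovery 13 rose, 8 fell and 3 were not called, with a median of 0.15. SRSF1, SRSF3, SRSF4 and SRSF7 were called higher under PdB and lower at recovery. Their ratios of recovery to DMSO were 0.837, 0.843, 0.811 and 0.757, outside the rule. SRSF5 and SRSF11 rose in both contrasts and SRSF6 and SRSF9 fell in both. SRSF10 was not called under PdB and rose at recovery. SRSF8, a near copy of SRSF2, had 83.0 CPM under PdB, 37.7 CPM at recovery and 36.8 CPM in DMSO. It rose under PdB (1.37 ± 0.081, adjusted p = 2.3e-11) and was not called at recovery (−0.03 ± 0.081, adjusted p = 0.74). How reads shared by SRSF2 and SRSF8 were counted is not given in the sources used here, so both values are uncertain. MFSD11, a transporter-like gene on the opposite strand whose span overlaps SRSF2, rose by 1.39 ± 0.077 under PdB (adjusted p = 9.5e-12) and fell by 0.41 on the log2 scale at recovery (adjusted p = 0.00015).

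MIR636 (chr17:76736450-76736548, minus strand) lies inside SRSF2, where 8 of 11 annotated SRSF2 transcripts span it and 6 have an exon that touches it. Counts over the hairpin gave 125, 118 and 113 CPM under PdB, 17.8, 17.2 and 16.5 CPM at recovery, and 37.3, 35.0 and 36.3 CPM in DMSO. That was 15.9% ± 0.609 of the SRSF2 value in PdB libraries, 14.4% ± 0.833 in recovery libraries and 14.5% ± 0.864 in DMSO libraries (SD, n = 3 each), a near constant share of its host. Libraries were made from polyadenylated RNA, so these counts are of longer transcripts that cover the hairpin and say nothing of the mature miRNA. SRSF2 and MIR636 are not independent members.

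MIR6515 (chr19:12940484-12940540, plus strand) lies in introns of 3 of the 7 annotated transcripts of CALR, the gene of the ER chaperone calreticulin, and in no exon. Its 57-base hairpin interval, shown to make clear how short a stretch was counted, and its mature 3p strand are given from RefSeq on GRCh38.p14, with the seed (bases 2 to 8 of the mature strand) in capitals.
MIR6515 hairpin: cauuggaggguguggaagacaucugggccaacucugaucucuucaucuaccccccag
hsa-miR-6515-3p: uCUCUUCAucuaccccccag

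Counts over MIR6515 gave 5.44, 5.78 and 4.54 CPM under PdB, 1.11, 1.03 and 1.31 CPM at recovery, and 2.68, 2.15 and 2.52 CPM in DMSO. By the rule, these groups did not overlap. The interval took 0.307% ± 0.0459 of its host CALR under PdB, 0.167% ± 0.0162 at recovery and 0.220% ± 0.0254 in DMSO. Its lowest PdB share, 0.256%, lay just above its highest DMSO share, 0.247%. For MIR636 in SRSF2 these were 15.42% and 15.37%. Whether the shares differed between groups was not tested. CALR itself rose under PdB (0.82 ± 0.040, adjusted p = 1.6e-12) and fell at recovery (−0.77 ± 0.040, adjusted p = 9.5e-12), and missed the rule with ratios of 1.54 and 0.615. RNA5SP244 (chr7:129756266-129756377, plus strand), a pseudogene of 5S ribosomal RNA, lies inside an exon of 3 of the 7 transcripts of NRF1, the gene of a transcription factor for respiratory chain genes. Its share of the NRF1 value was 8.92% ± 0.122 under PdB, 6.32% ± 1.07 at recovery and 8.11% ± 1.06 in DMSO. NRF1 rose by 1.78 ± 0.078 under PdB (adjusted p = 3.7e-13) and fell by 0.59 on the log2 scale at recovery (adjusted p = 3.3e-06).

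The set held both MAML2 and MAML3, Mastermind-like coactivators that bind the Notch intracellular domain and RBPJ on DNA. MAML2 (chr11:95976598-96343180, minus strand) read 154, 155 and 188 CPM under PdB, 26.5, 26.1 and 32.0 CPM at recovery, and 66.2, 59.0 and 61.9 CPM in DMSO. MAML3 (chr4:139716753-140154184, minus strand) was scarcer, with 7.70, 6.27 and 5.41 CPM under PdB, 0.623, 1.13 and 1.03 CPM at recovery, and 3.90, 2.48 and 4.16 CPM in DMSO. By the rule, the groups did not overlap in either gene. MAML2 had ratios of 2.66 and 0.452, and MAML3 of 1.84 and 0.264, so MAML3 stood nearer to DMSO under PdB and further below it at recovery.

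MAML1, the remaining gene of the family, rose under PdB with 145 CPM against 76.4 CPM in DMSO (1.13 ± 0.056, adjusted p = 2.0e-12) and was not called at recovery with 85.8 CPM (0.10 ± 0.055, adjusted p = 0.14). Of 23 other Notch and HES genes tested, 7 rose, 9 fell and 7 were not called under PdB, with a median log2 change of −0.25. At recovery 10 rose, 5 fell and 8 were not called, with a median of 0.08. NRARP, a feedback inhibitor of Notch, had the largest rise of the list under PdB (2.23 ± 0.17, adjusted p = 6.4e-10), and the glycosyltransferase gene LFNG the largest fall (−4.26 ± 0.33, adjusted p = 1.3e-09). At recovery, among the listed non-members with a mean of at least 100 counts, HES2, a repressor of the HES family, had the largest rise (2.14 ± 0.17, adjusted p = 2.9e-09), and LFNG again the largest fall (−0.88 ± 0.26, adjusted p = 0.0064).

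MINAR1 (chr15:79432516-79472290, plus strand), whose protein is named for its association with NOTCH2, was the named member furthest below DMSO at recovery. It had 3.64, 4.25 and 6.42 CPM under PdB, 0.381, 0.360 and 0.274 CPM at recovery, and 2.34, 2.59 and 2.06 CPM in DMSO. The recovery libraries rest on 22, 21 and 17 counts, whereas the PdB libraries held 233, 269 and 362 counts and the DMSO libraries 155, 160 and 138. The lowest DMSO library was 5.41 times the highest recovery library, and the ratios were 2.05 and 0.145.

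**Figure D3:**
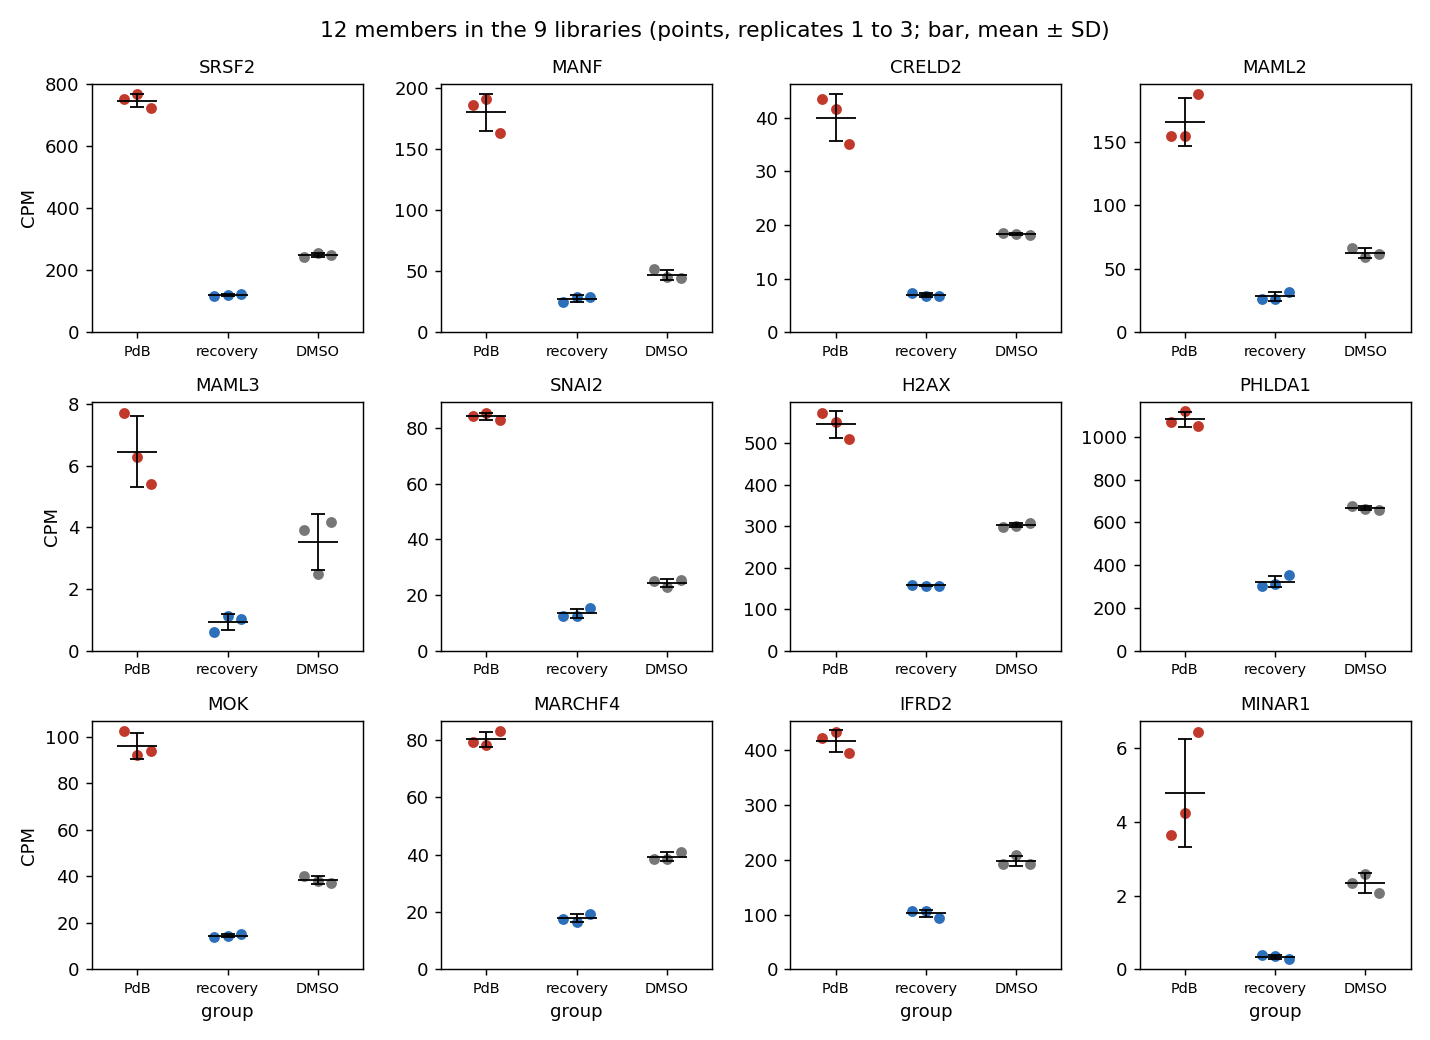
CPM of 12 members in each library, by group, with points for replicates 1 to 3 and a bar for the mean ± SD (n = 3); every vertical axis starts at 0. PdB stands above DMSO and recovery below it in all 12 panels, with tight groups for SRSF2, SNAI2 and MARCHF4 and wider PdB spread for MAML3 and MINAR1.

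SNAI2 encodes Slug, a zinc finger repressor of E-cadherin and other epithelial genes that marks mesenchymal cells. Its libraries held 84.5, 85.5 and 82.8 CPM under PdB, 12.4, 12.6 and 15.3 CPM at recovery, and 25.0, 22.9 and 25.5 CPM in DMSO. The ratios were 3.45 and 0.549, and the rule left no overlap between groups. Its relatives stood high in both states. SNAI1, the gene of Snail, had 3.61 ± 1.21 CPM under PdB, 9.14 ± 0.546 CPM at recovery and 0.845 ± 0.162 CPM in DMSO (SD, n = 3 each). It rose under PdB (2.28 ± 0.23, adjusted p = 4.9e-08) and at recovery (3.36 ± 0.23, adjusted p = 3.7e-10). SNAI3 was near the limit of detection, at 0.415 CPM under PdB, 0.280 CPM at recovery and 0.0632 CPM in DMSO, and was called higher in both contrasts (adjusted p = 0.0039 and 0.034). CDH1, the E-cadherin gene that Slug represses, had 0.203 ± 0.163 CPM under PdB, 1.39 ± 0.147 CPM at recovery and 0.320 ± 0.354 CPM in DMSO.

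Other members that act on transcription and chromatin were ZNF652, ZNF594, BEND3 and MBD5. ZNF594, a zinc finger gene with no intron in its longest transcript, had 41.1, 45.8 and 40.0 CPM under PdB, 6.45, 6.90 and 6.40 CPM at recovery, and 10.3, 12.4 and 11.6 CPM in DMSO, with ratios of 3.69 and 0.574. BEND3, which binds heterochromatin and represses transcription, had 39.5, 43.4 and 39.1 CPM under PdB, 7.82, 7.79 and 7.87 CPM at recovery, and 17.3, 17.0 and 18.9 CPM in DMSO. Its recovery libraries had the smallest spread of any member (0.491%), and its ratios were 2.30 and 0.442. ZNF652, a repressor with zinc fingers, lay just inside the threshold at recovery with 64.1 ± 5.41 CPM under PdB, 13.3 ± 1.00 CPM at recovery and 22.4 ± 2.83 CPM in DMSO. MBD5, a protein with a methyl-CpG-binding domain, had 20.5 ± 1.39 CPM under PdB, 6.77 ± 0.331 CPM at recovery and 11.7 ± 1.31 CPM in DMSO. MBD6, its relative, was not called under PdB (0.09 ± 0.066, adjusted p = 0.23) and rose at recovery (0.94 ± 0.066, adjusted p = 5.5e-10).

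H2AX (chr11:119093854-119095467, minus strand) encodes the histone variant that is phosphorylated at DNA double-strand breaks, and its longest annotated transcript has no intron. Its libraries read 574, 553 and 511 CPM under PdB, 159, 157 and 157 CPM at recovery, and 299, 302 and 308 CPM in DMSO. By the rule, the groups did not overlap. The ratios were 1.80 and 0.520. Of 9 other replication-independent and linker histone genes tested, 2 rose, 6 fell and 1 was not called under PdB (median log2 change −0.26). At recovery 1 rose, 6 fell and 2 were not called (median −0.52). Per kilobase of exon, H2AX had 338 CPM under PdB and 188 CPM in DMSO, SRSF2 had 248 CPM and 82.7 CPM, and PHLDA1 had 134 CPM and 82.6 CPM. ITGB8 stood at 0.405 CPM per kilobase under PdB and 0.116 in DMSO.

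PHLDA1 (chr12:76025447-76033932, minus strand) encodes a pleckstrin homology-like protein induced by growth factor and stress signals and linked to cell death. It had 1070, 1120 and 1052 CPM under PdB, 304, 310 and 352 CPM at recovery, and 677, 662 and 660 CPM in DMSO. The ratios were 1.62, just inside the threshold of 1.6, and 0.483, and PHLDA1 left the set when PdB replicate 2 was omitted. Of 19 other genes listed for feedback on MAP kinases and tested, 14 rose and 5 fell under PdB (median log2 change 1.22), and at recovery 11 rose, 6 fell and 2 were not called (median 0.52). The list also holds the transcription factor genes ETV4 and ETV5, which fell in both contrasts. SPRY1 and DUSP7 were called higher under PdB and lower at recovery, with ratios of recovery to DMSO of 0.6245 and 0.956. PHLDA2 fell under PdB (−0.54 ± 0.061, adjusted p = 2.5e-07) and at recovery (−0.24 ± 0.061, adjusted p = 0.0019). PHLDA3 was not called under PdB (−0.03 ± 0.12, adjusted p = 0.82) and rose at recovery (0.99 ± 0.12, adjusted p = 6.8e-07). PHLDA1-AS1, on the opposite strand of PHLDA1, rose by 0.39 ± 0.096 under PdB (adjusted p = 0.0014) and fell by 1.14 on the log2 scale at recovery (adjusted p = 1.2e-08).

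IFRD2 (chr3:50287732-50292918, minus strand) encodes a protein found on inactive ribosomes in rabbit reticulocytes. It read 422, 433 and 395 CPM under PdB, 106, 106 and 94.6 CPM at recovery, and 193, 209 and 193 CPM in DMSO, with ratios of 2.10 and 0.516. IFRD1, its relative, lay on the other side of DMSO under PdB, at 16.1 CPM under PdB, 67.2 CPM at recovery and 81.2 CPM in DMSO. IFRD1 fell in both contrasts (−2.14 ± 0.069, adjusted p = 5.3e-15, and −0.34 ± 0.064, adjusted p = 0.00013).

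MID1 and MARCHF4 encode ubiquitin ligases, MID1 on microtubules, where it targets the phosphatase PP2A, and MARCHF4 in Golgi membranes. MID1 (chrX:10445310-10833654, minus strand) had 165, 158 and 148 CPM under PdB, 37.5, 40.2 and 40.1 CPM at recovery, and 79.4, 82.1 and 71.2 CPM in DMSO. MARCHF4 (chr2:216257865-216372027, minus strand) had 79.2, 78.2 and 83.3 CPM under PdB, 17.7, 16.6 and 19.3 CPM at recovery, and 38.5, 38.5 and 41.1 CPM in DMSO. Both genes lay at about the same ratio to DMSO under PdB, 2.02 for MID1 and 2.04 for MARCHF4, and at recovery, 0.506 for MID1 and 0.454 for MARCHF4. MID2, the relative of MID1, rose in both contrasts (0.97 ± 0.094, adjusted p = 2.9e-08, and 1.43 ± 0.093, adjusted p = 2.1e-10). MARCHF9, the relative of MARCHF4, was not called under PdB (−0.12 ± 0.11, adjusted p = 0.32) and rose at recovery (0.38 ± 0.11, adjusted p = 0.0045).

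MOK (chr14:102224500-102305200, minus strand) encodes a kinase of the MAP kinase superfamily related to MAK and CILK1. Its libraries held 102, 92.2 and 93.8 CPM under PdB, 14.2, 14.4 and 15.1 CPM at recovery, and 40.4, 37.9 and 37.0 CPM in DMSO. Groups did not overlap, by the rule, the ratios were 2.501 and 0.379, and MOK stayed in the set under all 18 alternatives to the rule. CILK1 rose slightly under PdB (0.23 ± 0.065, adjusted p = 0.0041), a change about as large as the 0.198 by which scaling to library totals lowered the members' changes, and fell at recovery (−0.83 ± 0.066, adjusted p = 2.7e-09). WDR20, on the opposite strand of MOK, rose in both contrasts by 0.49 ± 0.060 (adjusted p = 6.5e-07) and 0.17 ± 0.060 (adjusted p = 0.022).

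**Figure D4:**
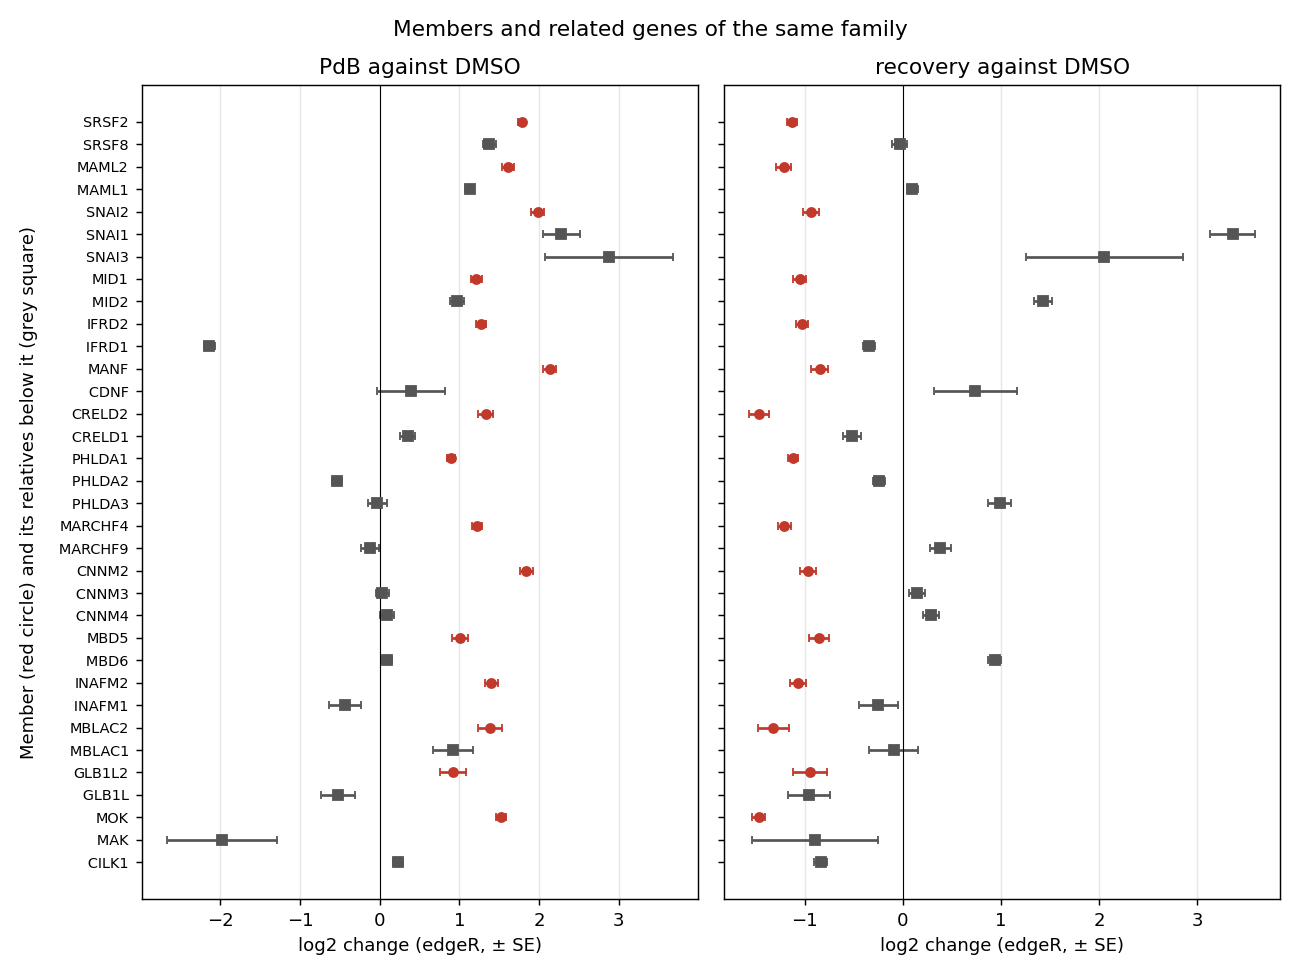
Log2 changes by edgeR (TMM scaling, ± SE) for members, as red circles, and the related genes listed under each, as grey squares, for PdB against DMSO (left) and recovery against DMSO (right). The relatives of NUTM2E are not plotted. IFRD1, PHLDA2, GLB1L, MAK and INAFM1 lie to the left of 0 in both panels. SNAI1, SNAI3, MID2, MAML1, CDNF, MBD6, CNNM3 and CNNM4 lie to the right of 0 in both, some of them by little. Members lie right in one panel and left in the other by the rule that chose them.

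The related genes, a list drawn up after the members were known, held 26 genes, of which 21 could be tested. Under PdB 8 rose, 6 fell and 7 were not called, and at recovery 7 rose, 6 fell and 8 were not called. CRELD1 was called higher under PdB and lower at recovery, as was CILK1. Of the other SRSF genes, only SRSF8 was on this list. Whether a member's change differed from that of its relatives was not tested.

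Membrane and transport members were CNNM2, INAFM2, OXTR, ITGB8 and SLC13A3. CNNM2, which takes part in magnesium transport, had 42.8, 47.9 and 47.0 CPM under PdB, 8.36, 7.86 and 7.48 CPM at recovery, and 15.6, 13.9 and 14.7 CPM in DMSO. The ratios were 3.12 and 0.537, whereas its relatives CNNM3 and CNNM4 were not called under PdB (adjusted p = 0.73 and 0.34). OXTR, the receptor of oxytocin, had 27.3, 29.9 and 35.2 CPM under PdB, 6.82, 6.81 and 9.69 CPM at recovery, and 17.3, 15.5 and 21.5 CPM in DMSO. Its PdB and DMSO libraries came close, since the lowest PdB library was 1.27 times the highest DMSO library, and OXTR left the set when DMSO replicate 2 or PdB replicate 3 was omitted.

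ITGB8 encodes the integrin subunit that with the alpha V subunit activates TGF-beta. It had 6.64, 5.67 and 6.10 CPM under PdB, 0.917, 1.12 and 1.08 CPM at recovery, and 2.33, 1.34 and 1.596 CPM in DMSO. Recovery and DMSO were separate by little, the lowest DMSO library being 1.21 times the highest recovery library, and ITGB8 left the set when DMSO replicate 1 or recovery replicate 1 was omitted. INAFM2, named for its InaF motif and with no intron in its longest transcript, had 47.8 ± 2.71 CPM under PdB, 10.4 ± 0.892 CPM at recovery and 20.8 ± 0.739 CPM in DMSO. SLC13A3, a sodium-coupled dicarboxylate transporter, had 3.84 ± 0.234 CPM under PdB, 1.11 ± 0.0559 CPM at recovery and 1.9998 ± 0.455 CPM in DMSO. TP53RK, whose span overlaps that of SLC13A3 on the same strand, rose in both contrasts (1.83 ± 0.080, adjusted p = 3.7e-13, and 0.42 ± 0.080, adjusted p = 0.00017).

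Enzymes outside these groups were ABHD11, MBLAC2 and GLB1L2. ABHD11, a mitochondrial hydrolase that keeps the 2-oxoglutarate dehydrogenase complex active, had 50.6 ± 2.05 CPM under PdB, 14.2 ± 1.24 CPM at recovery and 26.7 ± 2.45 CPM in DMSO. MBLAC2, an acyl-CoA hydrolase with a metallo-beta-lactamase fold, had 20.2, 19.1 and 18.5 CPM under PdB, 3.37, 2.78 and 4.53 CPM at recovery, and 9.21, 9.22 and 6.98 CPM in DMSO. Its ratios of 2.27 and 0.421 contrast with POLR3G, a subunit of RNA polymerase III on the opposite strand, which fell in both contrasts (−2.31 ± 0.15, adjusted p = 1.4e-10, and −1.66 ± 0.15, adjusted p = 1.3e-08). GLB1L2, a relative of beta-galactosidase, was loosely separated, with 15.5, 16.6 and 10.4 CPM under PdB, 5.28, 5.01 and 3.85 CPM at recovery, and 8.47, 9.22 and 8.23 CPM in DMSO. It left the set without PdB replicate 1 or PdB replicate 2. NUTM2E, of a family of near-identical copies whose values are uncertain, had 3.51, 1.75 and 2.73 CPM under PdB, 0.640, 0.704 and 0.758 CPM at recovery, and 0.862, 1.70 and 1.13 CPM in DMSO, so that its lowest PdB library was 1.03 times its highest DMSO library.

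Antisense RNAs made up 9 of the members annotated in GENCODE 29. ATP6V0E2-AS1 had 18.7, 23.5 and 17.9 CPM under PdB, 5.12, 6.01 and 5.42 CPM at recovery, and 11.01, 12.04 and 12.4 CPM in DMSO. BAALC-AS1 had 4.72, 3.76 and 6.74 CPM under PdB, 0.779, 0.223 and 0.774 CPM at recovery, and 1.03, 1.21 and 1.79 CPM in DMSO, the lowest recovery library resting on 13 counts. ALDH1A3-AS1 had ratios of 2.59 and 0.466, FUT8-AS1 of 2.16 and 0.503, and SPEN-AS1 of 1.92 and 0.567. The genes on the opposite strand moved in several ways. SPEN, a transcriptional corepressor, rose in both contrasts (1.48 ± 0.087, adjusted p = 2.3e-11, and 0.49 ± 0.086, adjusted p = 6.6e-05), and FUT8, the core fucosyltransferase, fell in both (−0.86 ± 0.051, adjusted p = 2.5e-11, and −0.82 ± 0.051, adjusted p = 1.1e-10). ALDH1A3, a retinaldehyde dehydrogenase, fell under PdB (−2.24 ± 0.21, adjusted p = 1.8e-08) and was not called at recovery (−0.17 ± 0.19, adjusted p = 0.45). FZD6, a Wnt receptor whose span overlaps that of BAALC-AS1 on the opposite strand, fell in both contrasts (−1.20 ± 0.079, adjusted p = 1.2e-10, and −1.33 ± 0.079, adjusted p = 5.8e-11). ATP6V0E2, a subunit of the vacuolar proton pump, fell at recovery (−1.11 ± 0.065, adjusted p = 4.7e-11), and its rise of 0.19 ± 0.063 under PdB (adjusted p = 0.014) was smaller than the 0.198 by which library-total scaling lowered changes. Whether counting used strand is not given in the sources used here, so a read from either strand of such a pair cannot be told apart, and the values of the antisense members are uncertain.

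Pseudogenes and genes with only a clone name or ID filled the rest of the set, and those given here were chosen after their values were seen. The highest PdB ratio, 9.13, was that of ENSG00000254595, annotated as a processed pseudogene, with 145, 252 and 131 counts under PdB, 4, 11 and 10 counts at recovery, and 21, 19 and 21 counts in DMSO. The lowest recovery ratio, 0.135, was that of ENSG00000271155, annotated as antisense, with 229, 205 and 143 counts under PdB, 7, 2 and 8 counts at recovery, and 35, 41 and 61 counts in DMSO. Both rest on few counts, and 3 members had under 10 counts in some library. PERPP2 had ratios of 2.63 and 0.534, and its parent gene PERP rose in both contrasts (0.46 ± 0.052, adjusted p = 2.6e-07, and 0.56 ± 0.052, adjusted p = 3.2e-08). HMGB1P10 had ratios of 1.61 and 0.542 and left the set in 4 of the 9 analyses that omitted a library. Its parent HMGB1 rose under PdB (0.67 ± 0.057, adjusted p = 4.6e-09) and fell at recovery (−0.30 ± 0.057, adjusted p = 0.00013), and how reads were shared between copies is not given in the sources used here.

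The number of introns, which the rule did not use, depended on the transcript it was taken from. Of the 45 members found in GENCODE 29, 14 (31.1%, 95% exact interval 18.2 to 46.6) had no intron in their longest transcript, beside 8.59% of the 12728 annotated genes with a PdB mean of at least 2 CPM. Among these 14 were MIR636, MIR6515 and RNA5SP244, intervals inside SRSF2, CALR and NRF1 whose counts can come from host transcripts. FUT8-AS1 and HMGB1P10, also among them, lie opposite the expressed genes FUT8 and TPST2, and whether counting used strand is not given. With at most 1 intron there were 25 (55.6%), beside 16.5%, and the median was 1 intron beside 6. Much of the set was not protein-coding, at 19 of 45 (42.2%) beside 11.5%, and antisense RNAs were 9 of 45 beside 2.67%. Among the 26 protein-coding members, 3 had no intron, namely H2AX, INAFM2 and ZNF594 (11.5%, interval 2.45 to 30.2), beside 3.37% of protein-coding genes, and the median was 3.5 introns beside 7. The longest annotated transcript can be one that keeps introns, as for CRELD2 and MOK, each with 1 intron by this measure and up to 10 introns in CRELD2 and 11 in MOK by other transcripts. By the transcript with the most introns, a measure added after the data were seen, 24.4% of members had none beside 6.60% of all genes, with a median of 3 beside 8. By that measure 0 of the 26 protein-coding members had no intron, beside 1.57% of protein-coding genes, and their median was 4 beside 9, since H2AX, INAFM2 and ZNF594 each have an annotated transcript with 1 intron. By the transcript with the fewest introns, 33.3% of members had none, beside 12.7% of all genes, and the median was 1 for both. Other members had many introns, with 14 in the longest transcripts of IFRD2 and MBD5, 13 in ITGB8 and 21 in GLB1L2. Genes are not replicates and some share loci, so these shares carry no test.

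**Figure D5:**
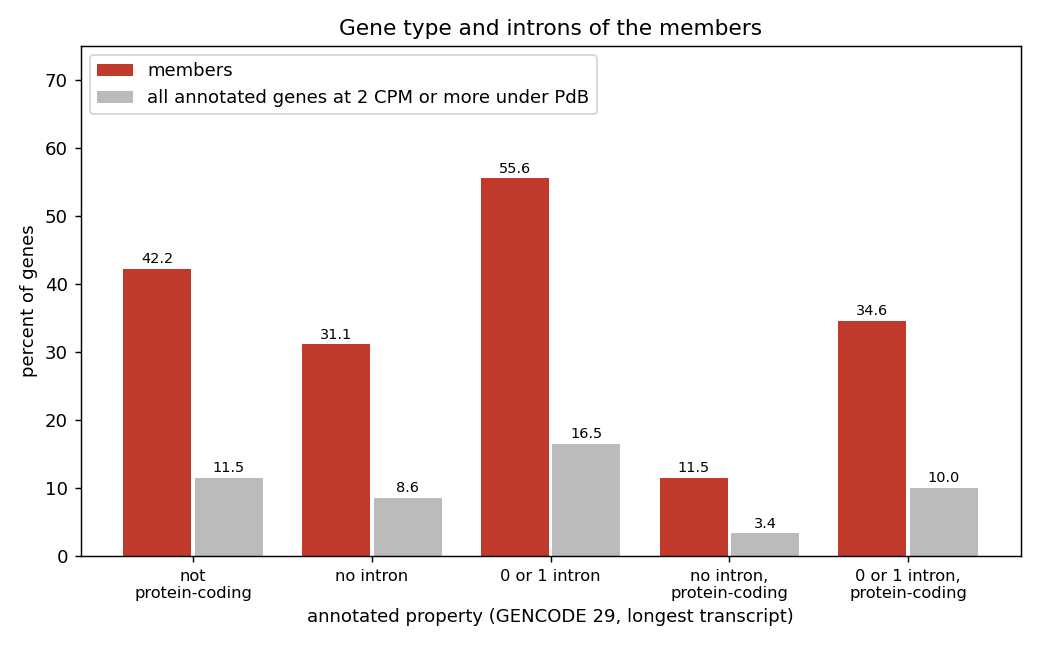
Bars give the percent of genes with each annotated property, in red for the members (45, of which 26 protein-coding) and in grey for all annotated genes with a PdB mean of at least 2 CPM. By the longest transcript, red stands above grey for all 5 properties, with 31.1% against 8.59% for genes with no intron and 11.5% against 3.37% within protein-coding genes. The members with no intron include MIR636, MIR6515 and RNA5SP244, which lie inside host genes. The transcript with the most introns is not plotted. By it, 0.0% of protein-coding members had no intron, against 1.57%, too few genes to read an order from, and the median was 4 introns against 9.

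Members were spread over 20 chromosomes, with at most 5, on chromosome 17, of which SRSF2 and MIR636 are 1 locus. Gene spans had a median of 9521 bases beside 29376 bases. Among protein-coding genes the medians were close, at 29498 bases for members beside 33292. The 19 members that are not protein-coding had a median of 2000 bases. Another gene with at least 1 CPM in DMSO overlapped 27 members. The share over all genes was not taken, so nothing is read from that count. Annotated 3′ UTRs of the 26 protein-coding members had a median of 2248 bases beside 1313. The AU-rich nonamer ATTTATTTA, a motif of short-lived mRNAs, was in the 3′ UTR of CNNM2, ITGB8, MBD5 and MBLAC2, 15.4% of members beside 7.53% of 10949 genes. The shorter ATTTA was in 73.1% beside 72.9%, and the Pumilio motif TGTANATA in 30.8% beside 30.1%.

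Promoters of 24 members were found in the RefSeq table, as 250 bases before and 50 after the start, and searched on both strands beside those of 9331 genes. CCAAT was in 37.5% of members beside 37.3% of all, the core TGACG of the cyclic AMP element in 33.3% beside 35.5%, and the E-box CACGTG in 12.5% beside 10.6%. H2AX alone among members had TATAAA (4.17% beside 5.14%). No member had the full cyclic AMP element TGACGTCA (3.47% of all genes), the AP-1 site TGANTCA (4.38%), the NF-kB site GGGANTTCC (2.33%), the ATF4-type element TGATGNAA (1.55%) or the core of the serum response element (0.0429%). The ER stress response element was searched after the members were known. It was in CRELD2 alone among members, beside 14 of 9331 genes (0.150%), while MANF held the 3 CCAAT boxes shown above and no full match. The second ER stress element (ATTGG, any base, then CCACG) was in no member and in 0.118% of all. The GC content of the members' promoters had a median of 69.3% beside 65.7%.

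Values near the thresholds show how finely the set was cut. Just outside the PdB threshold lay NDUFAF3 (1.599), GPR146 (1.58), KRTAP2-3 (1.58) and TMEFF1 (1.54), and just inside it PHLDA1 (1.62), GLB1L2 (1.64), ATP6V0E2-AS1 (1.69) and OXTR (1.70). At recovery BCL2L1 (0.607), TICAM2 (0.608), ARSJ (0.611) and PYGO1 (0.612) were just outside, and ZNF652 (0.595), ITGB8 (0.591), MANF (0.583) and MBD5 (0.580) just inside. By PdB level, CLIP3 (1.97 CPM), ELAC1 (1.94 CPM), NKILA (1.82 CPM) and MIR4737 (1.39 CPM) met all other conditions and missed the minimum, while NUTM2E (2.67 CPM), SPEN-AS1 (3.05 CPM), FUT8-AS1 (3.37 CPM) and SLC13A3 (3.84 CPM) were the named members nearest above it. Besides those named above, ZNF652 left the set without DMSO replicate 1 or recovery replicate 1, MBD5 and SPEN-AS1 without DMSO replicate 1, SLC13A3 and NUTM2E without DMSO replicate 2, and ATP6V0E2-AS1 without PdB replicate 2.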

How the data were processed

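The authors deposited raw whole-number read counts per gene for 9 libraries and 60708 gene IDs. The genome was hg38, and the tools named were featureCounts 2.0.3, STAR 2.7.9a, DESeq2 1.30.0, fastp 0.23.2 and Picard, per the submitters' processing notes. What annotation release was used, whether strand was, and how reads shared between genes were treated is not given in the sources used here. The members and lists were chosen with earlier results of these data known.

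Levels and ratios are CPM on library totals. The 20812 genes that passed filterByExpr were scaled by TMM (factors 0.883 to 0.923 in PdB, 1.08 to 1.09 at recovery, 1.02 to 1.03 in DMSO) and tested two-sided with edgeR 4.0.16 (quasi-likelihood, R 4.3.3), all 9 libraries in 1 fit, Benjamini-Hochberg threshold 0.05. Log2 changes carry their SE. All 46 members passed the filter. The common biological coefficient of variation was 0.111. The scripts were tested on simulated data. Figures and tables used Python 3.11.15, pandas 2.3.3, scipy 1.17.1 and matplotlib 3.10.9.

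A symbol was found for 60507 IDs and 58440 matched GENCODE 29 (GRCh38), which gave coordinates and introns, both for 45 members. Promoters and miRNA sequences are from RefSeq (GRCh38.p14). Members named were the 12 with the highest PdB ratio, the lowest recovery ratio and the highest PdB CPM, those in a gene list, and the 4 nearest each threshold on either side; list genes named were the largest rise and fall per comparison with a mean of at least 100 counts, in lists with 2 or more members. ABHD11, INAFM2 and MIR6515 were named outside this choice, with their values known. Of 44 lists, 5 held a member. Intervals are exact binomial intervals on numbers of genes.

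No library pair within a group agreed within counting noise (chi-square per degree of freedom 4.98 to 26.0). Same-numbered replicates deviated together weakly at most (correlations −0.0032 to 0.0480, beside −0.0615 to 0.0263 for different numbers), so numbers were not used as pairs. Alternatives were other scalings, transcripts, thresholds, filters and DESeq2 1.42.0, the replicate number as a block, and each library left out.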

Additional observations from a re-analysis of the deposited data

How the results depend on the processing

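The count of 46 members depended on the scaling and thresholds. It was 82 with TMM, 95 with RLE size factors and 97 with upper-quartile factors, and all 46 were kept in each. Each of these scalings raised every ratio of PdB to DMSO, and TMM and RLE also lowered every ratio of recovery to DMSO. Members could thus hardly be lost, and nothing is read from their being kept. The count was 17 at ratios of 2.0 and 0.5 and 81 at 1.5 and 0.67. Leaving out each library in turn gave 43 to 55 members, 30 of the 46 were kept in each of these 9 analyses, and 10 were kept in all 18 alternatives to the rule. The share of members with no intron was 11.5% instead of 31.1% among protein-coding members, and the median intron number 3.5 instead of 1. By the transcript with the most introns, a choice made after seeing the data, these were 0.0% and 4 among protein-coding members. The share with an AU-rich 3′ UTR motif was 73.1% for ATTTA instead of 15.4% for ATTTATTTA. Of 660 log2 changes recomputed, those of 33 named members for PdB and for recovery against DMSO, 0 turned direction, 614 moved by less than the spread between replicates and 46 by more, all 46 under another scaling. The rule chose members by both directions in these same libraries, so a turn was hardly possible and nothing is read from its absence.

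With the replicate number as a block, 14628 genes were called for PdB against DMSO (14600 without it), 12922 for recovery against DMSO (12746) and 13871 for recovery against PdB (13767). Same-numbered replicates were only weakly correlated, and the numbers were not used as pairs. Library-total scaling called 8861 genes higher and 4877 lower at recovery against PdB, where TMM called 7204 higher and 6563 lower and upper-quartile scaling 6768 higher and 7021 lower. DESeq2 called 15082 genes for PdB against DMSO. Members with few counts, such as ENSG00000271155 with 2 counts in its lowest library, have ratios that counting error alone can move.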
